A study of Rattus norvegicus with 16 samples.

Results

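The genes described here encode components, receptors and a regulator of the complement system, measured by RNA sequencing in microglia from irradiated and sham-irradiated rats. They were taken by symbol from the deposited count matrix. Of 9 symbols looked up (C1qa, C1qb, C1qc, C3, C4b, Itgam, C3ar1, C5ar1 and Cd59), 8 had a row among the 21842 symbols of the matrix. C5ar1, the gene of a receptor for the C5a fragment, had no row under that symbol or the older symbol C5r1 and was not analysed here. The files list them as ENSRNOG00000012807 (C1qa), ENSRNOG00000012749 (C1qb), ENSRNOG00000012804 (C1qc), ENSRNOG00000046834 (C3), ENSRNOG00000070397 (C4b), ENSRNOG00000019728 (Itgam), ENSRNOG00000009211 (C3ar1) and ENSRNOG00000042821 (Cd59). All 8 genes with a row passed the filter on low counts, which left 12308 genes for testing.

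Complement is a protein cascade that tags microbes, dying cells and, in the brain, synapses for removal. C1q, built from the products of C1qa, C1qb and C1qc, starts the classical pathway; C4 and C3 are then cleaved and deposited on the target, where phagocytes read C3 fragments through complement receptor 3, the partnership of the Itgam and Itgb2 integrin chains. C3ar1 encodes the receptor for the soluble C3a fragment, and CD59 blocks the assembly of the membrane attack complex on host cells. Microglia, the resident macrophages of the brain, are known from mice as its main source of C1q.

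Male Wistar rats (Hsd/Cpb:WU) were exposed to X-rays (14 Gy) or sham-irradiated. After 6 weeks they were injected intraperitoneally with LPS (lipopolysaccharide, an outer membrane component of Gram-negative bacteria) or with PBS, the vehicle. The 4 groups were thus irradiated rats given LPS, irradiated rats given PBS, sham rats given LPS and sham rats given PBS, with 4 libraries each. Live cells with high CD11b and intermediate CD45 were sorted from whole brains after cold mechanical dissociation. The sources used here give neither the age of the rats nor the time from injection to collection. The labels do not name animals, so p-values measure the spread between these libraries. CD11b is the product of Itgam, so that gene was part of the sort.

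Levels are CPM, read counts scaled to a common library total with TMM factors, and are given as mean ± SD over the 4 libraries of a group. Changes are log2 fold changes ± SE from edgeR's quasi-likelihood test, with p-values adjusted by the Benjamini-Hochberg method over all 12308 genes. A gene is said to rise, fall or change where that adjusted p was under 0.05. In the text, libraries are listed in the order 1 to 4, and numbers were not taken to pair libraries across groups.

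Library totals ranged from 13990623 to 61435103 counts. Microglia markers were abundant in every library, with a summed level of 15300 to 19900 CPM in irradiated LPS, 21800 to 27800 in irradiated PBS, 37800 to 41700 in sham LPS and 48400 to 52500 CPM in sham PBS libraries. After irradiation 9 of the 10 tested microglia markers fell with PBS and 9 with LPS, and under LPS 8 fell in irradiated and 6 in sham rats. Siglech was at or near 0 in every group (at most 0.522 CPM in a library). The sum of 10 border-associated macrophage markers was 3190 to 4370 CPM in irradiated LPS, 1290 to 1590 in irradiated PBS, 482 to 1050 in sham LPS and 389 to 453 CPM in sham PBS libraries. Monocyte markers summed to 676 to 1120, 521 to 599, 305 to 423 and 171 to 251 CPM in the same order of groups. Under LPS 6 of 10 tested monocyte markers rose and 1 fell in irradiated rats, while 4 rose and 3 fell in sham rats. After irradiation 8 rose and 0 fell with PBS and with LPS. Of the 10 border-associated macrophage markers 9 rose and 0 fell after irradiation, with PBS and with LPS. T and NK cell markers summed to 566 to 1130, 102 to 204, 22.5 to 210 and 15.2 to 27.2 CPM. Of these 12 markers 6 rose under LPS in irradiated and 5 in sham rats, and 0 fell. Irradiation raised 12 of them with PBS and 11 with LPS. Neutrophil markers reached 2330 CPM in irradiated LPS library 1, against 371 to 598 CPM in the other irradiated LPS libraries. They summed to 234 to 309 CPM in irradiated PBS, 248 to 301 in sham LPS and 329 to 414 CPM in sham PBS libraries. The sham PBS range thus overlapped that of irradiated LPS. Mpo was at 0 in all 16 libraries. Of 9 tested neutrophil markers 8 rose under LPS in irradiated rats and 8 rose after irradiation with LPS, while 1 rose and 1 fell after irradiation with PBS and under LPS in sham rats. In bulk RNA, fewer cells of a type and less RNA per cell cannot be told apart.

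LPS raised C1q subunit genes and lowered C3ar1 in both arms. In irradiated rats C1qb, C1qc and C3 rose and C3ar1 fell, while 17.7% of all genes tested rose and 15.2% fell. In sham rats C1qa, C1qb and C1qc rose and C3ar1 fell, while 15.8% of all genes rose and 15.4% fell. The median log2 change of the 8 genes was 0.31 in irradiated and 0.26 in sham rats, against -0.02 and -0.01 over all genes in those comparisons. Irradiation raised C1qc, C4b and Cd59 and lowered C3ar1 in rats given PBS, where 11.8% of all genes rose and 10.6% fell. With LPS it raised C3, C4b, Itgam and Cd59 and lowered C3ar1, where 15.6% of all genes rose and 13.3% fell. The medians of the 8 genes were 0.21 with PBS and 0.37 with LPS, against -0.01 and 0.02 over all genes. Single falls out of 8 are near these backgrounds, and counts over so few genes were not read further.

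**Figure D1:**
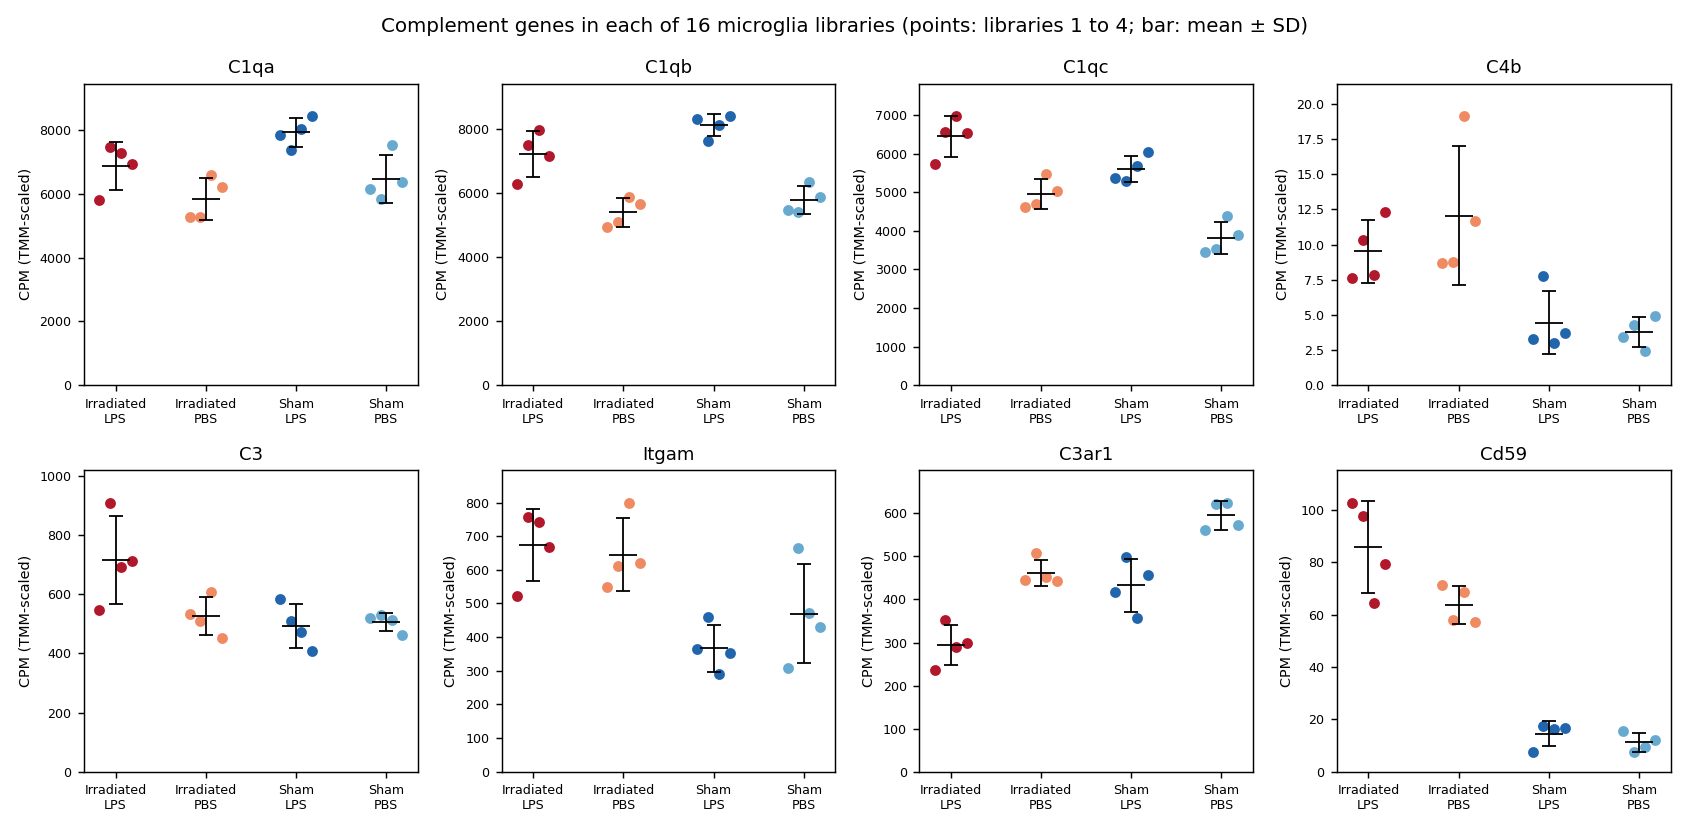
CPM (TMM-scaled, linear axes from 0) of the 8 complement genes in all 16 libraries; each point is a library, the bar is the group mean and the whiskers are the SD (n = 4). For Cd59 the irradiated libraries are at 57.2 CPM or more and the sham libraries at 17.5 CPM or less.

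**Figure D2:**
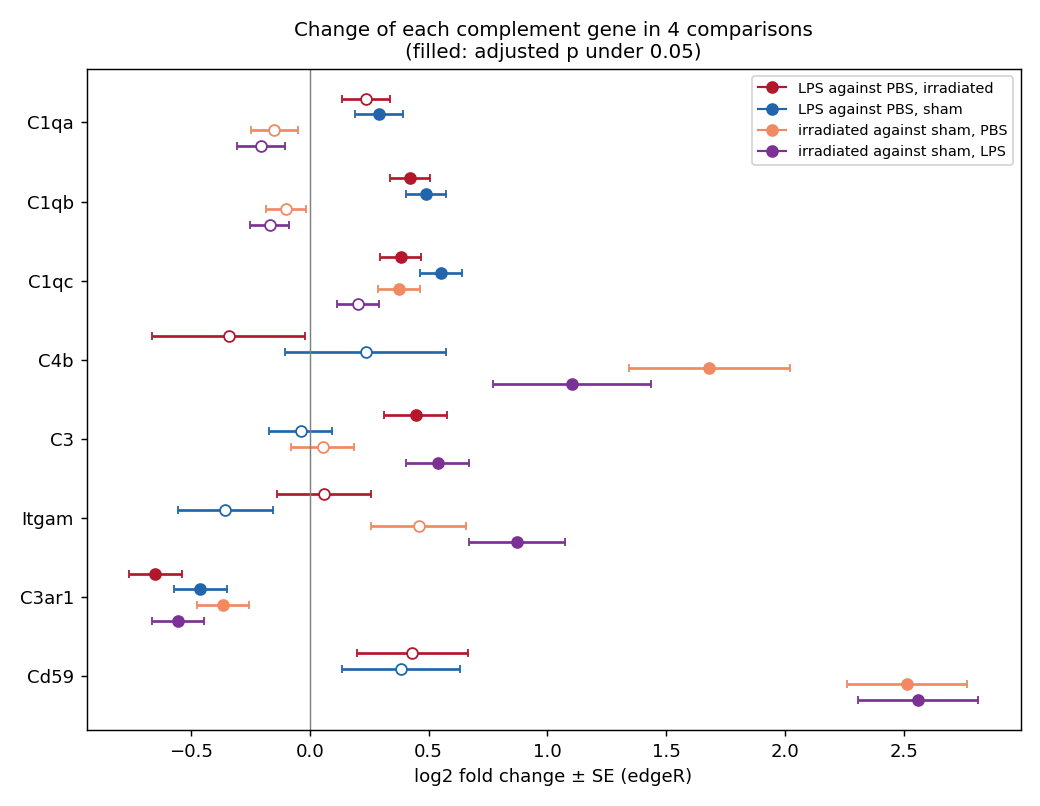
Log2 fold changes ± SE of the 8 genes in the 4 comparisons (edgeR; filled symbols have an adjusted p under 0.05). C3ar1 lies below 0 in all 4 comparisons, and Cd59 is above 2.5 in both comparisons of irradiated with sham rats.

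Of the C1q genes, which encode the chains of the recognition molecule of the classical pathway, C1qb and C1qc rose under LPS in irradiated and in sham rats, and C1qa rose in sham rats. C1qc had 5730, 6580, 6980 and 6540 CPM in irradiated LPS libraries, against 4620, 4700, 5470 and 5030 CPM in irradiated PBS libraries. In sham rats it had 5370, 5300, 5700 and 6050 CPM with LPS, against 3460, 3540, 4390 and 3890 CPM with PBS. The LPS libraries were above the PBS libraries in both arms, without overlap. C1qc rose 1.3-fold in irradiated rats (log2 0.38 ± 0.09, edgeR adjusted p = 0.00241) and 1.47-fold in sham rats (0.55 ± 0.09, edgeR adjusted p = 0.000103). In rats given PBS irradiation raised it as well, again without overlap between groups (0.37 ± 0.09, edgeR adjusted p = 0.00426).

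With LPS the difference between irradiated and sham rats in C1qc was 0.20 ± 0.09 on the log2 scale and did not pass (edgeR adjusted p = 0.0927). It passed without irradiated LPS library 1 (0.26, edgeR adjusted p = 0.0373), with the irradiated libraries numbered 1 left out of both arms (0.27, adjusted p = 0.0194) and with library totals in place of TMM factors (0.28, adjusted p = 0.00646).

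C1qb had 6290, 7530, 7970 and 7170 CPM in irradiated LPS libraries, against 4940, 5100, 5900 and 5680 CPM in irradiated PBS libraries. In sham rats it had 8340, 7650, 8150 and 8420 CPM with LPS, against 5490, 5420, 6370 and 5900 CPM with PBS. Here too no LPS library fell within the range of its PBS group. C1qb rose 1.34-fold in irradiated (0.42 ± 0.08, edgeR adjusted p = 0.000718) and 1.41-fold in sham rats (0.49 ± 0.08, edgeR adjusted p = 0.00022). Irradiation left no called difference in C1qb with PBS (-0.10 ± 0.08, edgeR adjusted p = 0.434) or with LPS (-0.17 ± 0.08, adjusted p = 0.146), and with library totals alone the value with PBS was 0.06.

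C1qa had 5820, 7480, 7300 and 6930 CPM in irradiated LPS libraries, against 5280, 5280, 6600 and 6210 CPM in irradiated PBS libraries. In sham rats it had 7850, 7380, 8040 and 8450 CPM with LPS, against 6170, 5830, 7550 and 6360 CPM with PBS. The groups overlapped in both arms. C1qa rose 1.22-fold in sham rats (0.29 ± 0.10, edgeR adjusted p = 0.0325), a call lost with upper quartile factors (adjusted p = 0.0547). It was also lost without sham PBS library 1, 2 or 4 or without sham LPS library 3 or 4, where adjusted p ran from 0.0687 to 0.106. In irradiated rats the change was 0.24 ± 0.10 (edgeR adjusted p = 0.0783), and it passed without irradiated LPS library 1 (0.31, adjusted p = 0.0191), without irradiated PBS library 3 (0.30, adjusted p = 0.0391) and without both irradiated libraries numbered 1 (0.27, adjusted p = 0.0431). Irradiation left no called difference in C1qa with PBS (-0.15 ± 0.10, edgeR adjusted p = 0.319; 0.01 with library totals alone) or with LPS (-0.20 ± 0.10, adjusted p = 0.139).

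Together the C1q genes took 2.05% ± 0.151 of all counts in irradiated LPS, 1.76% ± 0.13 in irradiated PBS, 2.06% ± 0.0819 in sham LPS and 1.56% ± 0.143 in sham PBS libraries (SD, n = 4 each). Beside these values the summed microglia markers were lower in LPS than in PBS libraries of both arms, and the summed markers of border-associated macrophages, another macrophage type of the brain that can carry C1q transcripts, were higher. Within that list, however, LPS raised 3 of 10 markers and lowered 2 in irradiated rats and raised 3 and lowered 1 in sham rats. In irradiated rats Clec10a averaged 2250 ± 298 CPM with LPS and 430 ± 43.5 CPM with PBS, whereas Pf4 averaged 94.4 ± 13.3 CPM with LPS and 122 ± 9.72 CPM with PBS. Their part in the C1q values was not tested.

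The C1q genes lie next to each other on rat chromosome 5 in the order C1qb, C1qc, C1qa (RefSeq, GRCr8, used for gene order), and their relative levels were compared within libraries. A ratio of counts depends on transcript lengths, so only its differences between groups are of interest. These ratios were chosen after the values were seen, and they depend on each other. The p-values below, also those adjusted over the 8 ratio tests, do not account for that choice. The ratio of C1qc to C1qa counts was 0.984, 0.88, 0.957 and 0.943 in irradiated LPS and 0.875, 0.891, 0.829 and 0.81 in irradiated PBS libraries. It was 0.685, 0.718, 0.708 and 0.716 in sham LPS and 0.561, 0.608, 0.581 and 0.611 in sham PBS libraries. Every irradiated library was above every sham library. Within PBS and LPS, irradiation raised the ratio 1.38-fold (log2 0.47; exact two-sided permutation test within strata, p = 0.000408, the smallest this design can give; adjusted over 8 such tests, 0.00109). LPS raised it 1.15-fold within irradiated and sham rats (log2 0.20; exact permutation p = 0.000816, adjusted 0.00163).

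The ratio of C1qc to C1qb averaged 0.893 ± 0.0208 in irradiated LPS, 0.917 ± 0.0216 in irradiated PBS, 0.689 ± 0.0316 in sham LPS and 0.658 ± 0.0241 in sham PBS libraries. Irradiation raised it 1.34-fold (log2 0.43; exact permutation p = 0.000408, adjusted 0.00109), again with no overlap, and for LPS the difference was 0.01 on the log2 scale (exact permutation p = 0.627). The ratio of C1qb to C1qa averaged 1.05 ± 0.04, 0.928 ± 0.031, 1.03 ± 0.0287 and 0.897 ± 0.0408 in the same order of groups. LPS raised it 1.14-fold (log2 0.19; exact permutation p = 0.000408, adjusted 0.00109), and for irradiation the difference was 0.04 on the log2 scale (exact permutation p = 0.125, adjusted 0.167). Relative to both other subunit genes, C1qc was higher after irradiation and C1qa was lower under LPS.

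**Figure D3:**
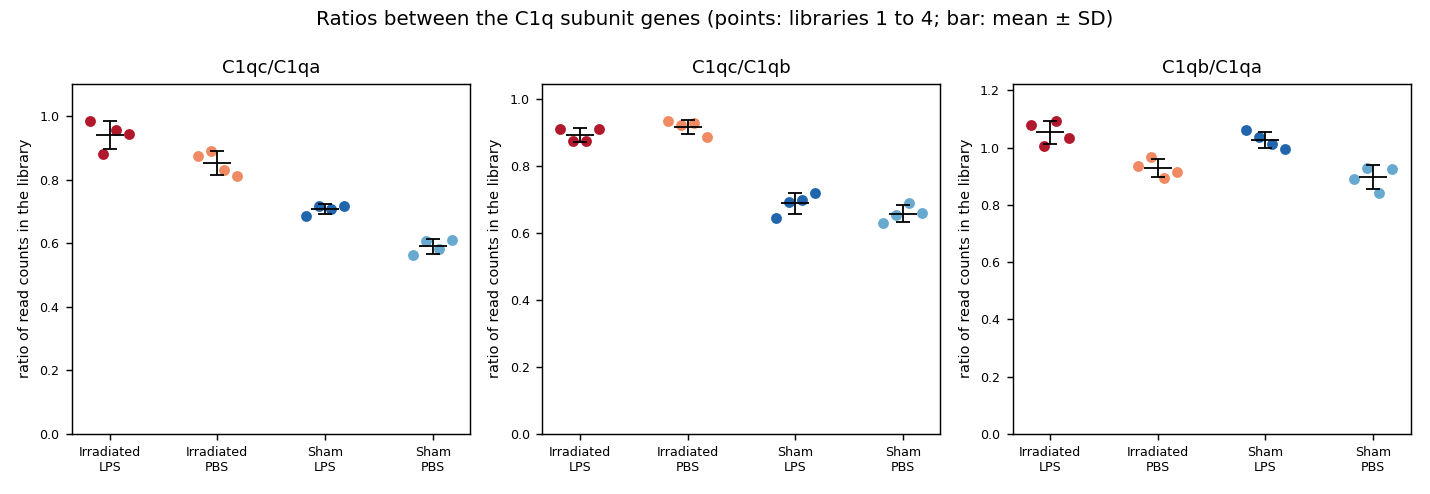
Ratios of the read counts of the C1q subunit genes in each library (linear axes from 0; points are libraries, bars are mean ± SD, n = 4). For C1qc/C1qa and C1qc/C1qb all 8 irradiated libraries are above all 8 sham libraries, and for C1qb/C1qa the LPS libraries are above the PBS libraries within each arm.

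RefSeq windows of 300 bases around the annotated start were found for 6 of the 9 genes, among them C1qa and C1qb. To show the sequence beside these subunit genes, whose ratio moved with LPS, the 250 bases before each start are shown, in build GRCr8, with motif matches in capitals.
C1qa, chr5:154419934-154420183, minus strand: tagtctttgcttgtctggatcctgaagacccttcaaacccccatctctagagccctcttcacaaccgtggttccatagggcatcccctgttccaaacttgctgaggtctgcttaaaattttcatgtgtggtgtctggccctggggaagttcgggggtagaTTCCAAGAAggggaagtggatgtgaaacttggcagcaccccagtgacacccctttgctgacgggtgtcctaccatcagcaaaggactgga
C1qb, chr5:154407828-154408077, minus strand: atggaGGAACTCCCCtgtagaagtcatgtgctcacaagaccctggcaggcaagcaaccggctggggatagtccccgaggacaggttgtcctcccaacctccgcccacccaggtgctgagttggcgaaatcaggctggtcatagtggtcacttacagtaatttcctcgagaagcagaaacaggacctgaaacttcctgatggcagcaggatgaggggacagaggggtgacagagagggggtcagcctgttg

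The C1qa window holds a GAS motif (TTCNNNGAA, a form bound by STAT factors) at position -90 from the start, which 8.87% of all 33469 windows hold on either strand. The C1qb window holds a match to the kappa-B consensus on the opposite strand, at position -245 from the start, as do 7.51% of windows. Neither window holds the ISRE core (GAAANNGAA), the PU.1 form GAGGAAGT or the C/EBP core (TTGCNNAA), found in 9.71%, 2.42% and 10.6% of windows. These matches describe letters in a window and no factor was measured there.

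C4b, an isotype gene of the C4 component that C1 cleaves, was higher after irradiation. It had 7.63, 10.3, 7.84 and 12.3 CPM in irradiated LPS libraries, against 3.29, 7.75, 2.98 and 3.69 CPM in sham LPS libraries. With PBS it had 8.69, 8.74, 19.2 and 11.7 CPM in irradiated rats, against 3.42, 4.24, 2.45 and 4.94 CPM in sham rats. The PBS groups did not overlap, and with LPS only sham library 2 reached into the irradiated range. C4b rose 3.21-fold with PBS (log2 1.68 ± 0.34, edgeR adjusted p = 0.00131) and 2.15-fold with LPS (1.10 ± 0.33, edgeR adjusted p = 0.0178). The call with LPS was lost without sham LPS library 1, 3 or 4 or without irradiated LPS library 4, where adjusted p ran from 0.0515 to 0.0607. LPS itself left no called change in irradiated (-0.34 ± 0.32, edgeR adjusted p = 0.468) or sham rats (0.24 ± 0.34, adjusted p = 0.645; -0.18 without sham LPS library 2).

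C4b values rest on 51 to 621 counts per library and on how reads were divided with C4a, a close copy on chromosome 20. C4a had 384, 471, 374 and 427 CPM in irradiated LPS libraries, against 196, 393, 220 and 209 CPM in sham LPS libraries. With PBS it had 266, 420, 731 and 580 CPM in irradiated rats, against 155, 276, 127 and 245 CPM in sham rats. C4a rose 2.49-fold after irradiation with PBS (1.32 ± 0.32, edgeR adjusted p = 0.00857), although irradiated library 1 was below sham library 2. With LPS the difference was 0.70 ± 0.32 (edgeR adjusted p = 0.119). With the counts of both genes summed, which was tried after seeing that both had reads, the difference with LPS was 0.71 (edgeR adjusted p = 0.115) and that with PBS stayed called.

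The ratio of C4b to C4a counts was 0.0199, 0.0219, 0.021 and 0.0288 in irradiated LPS and 0.0326, 0.0208, 0.0262 and 0.0201 in irradiated PBS libraries. It was 0.0168, 0.0197, 0.0136 and 0.0176 in sham LPS and 0.0221, 0.0154, 0.0193 and 0.0202 in sham PBS libraries. The ratio was 1.32-fold higher after irradiation (log2 0.40; exact permutation p = 0.0049, adjusted over the 8 ratio tests 0.00784), with overlap in the PBS arm. For LPS the difference was -0.15 on the log2 scale (exact permutation p = 0.246, adjusted 0.281). Reads from a copy with so few counts may come from the other copy, so the level of C4b is uncertain.

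The start windows of these copies were 95.9% identical (279 of 291 aligned bases). They are shown for the 250 bases before the start in build GRCr8, with capitals on bases that differ from the other copy or have no partner in the alignment.
C4b, chr20:4201729-4201978, plus strand: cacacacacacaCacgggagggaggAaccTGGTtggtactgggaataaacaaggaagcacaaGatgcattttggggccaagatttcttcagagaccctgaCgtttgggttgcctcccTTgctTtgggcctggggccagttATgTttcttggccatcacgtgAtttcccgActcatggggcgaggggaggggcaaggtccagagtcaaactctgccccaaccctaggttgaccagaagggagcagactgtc
C4a, chr20:4010107-4010356, plus strand: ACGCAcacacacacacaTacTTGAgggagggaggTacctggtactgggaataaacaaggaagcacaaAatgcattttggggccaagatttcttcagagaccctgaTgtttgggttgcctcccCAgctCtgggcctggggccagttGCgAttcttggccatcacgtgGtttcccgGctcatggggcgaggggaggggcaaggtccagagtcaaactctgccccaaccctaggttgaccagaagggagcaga

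**Figure D4:**
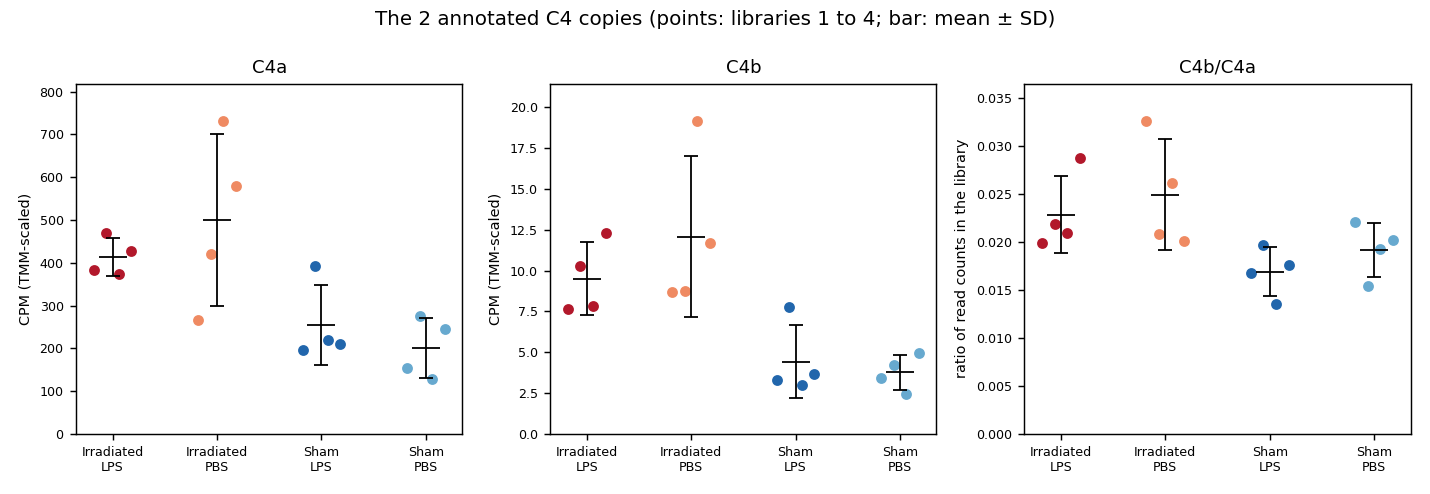
CPM of C4a and C4b and the ratio of their counts in each library (linear axes from 0; points are libraries, bars are mean ± SD, n = 4). Both genes are highest in irradiated PBS library 3, at 731 CPM for C4a and 19.2 CPM for C4b.

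C3, the central component on which all pathways converge, was highest in irradiated rats given LPS. It had 546, 909, 692 and 713 CPM in irradiated LPS libraries and 532, 509, 606 and 452 CPM in irradiated PBS libraries. It had 582, 508, 473 and 407 CPM in sham LPS and 518, 528, 513 and 463 CPM in sham PBS libraries. Irradiated LPS libraries 2, 3 and 4 were above all others, and library 1 was within the range of the other groups. Irradiation raised C3 1.45-fold with LPS (0.54 ± 0.13, edgeR adjusted p = 0.00461), and with PBS the difference was 0.05 ± 0.13 (adjusted p = 0.819). LPS raised C3 1.36-fold in irradiated rats (0.45 ± 0.13, edgeR adjusted p = 0.0142), and in sham rats the difference was -0.04 ± 0.13 (adjusted p = 0.861).

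The LPS call of C3 in irradiated rats was lost without irradiated LPS library 2 (0.30, edgeR adjusted p = 0.0851) or irradiated PBS library 4 (0.38, adjusted p = 0.0647). It was also lost with upper quartile factors (0.35, adjusted p = 0.0549) and with library totals alone (0.33, adjusted p = 0.0645). The difference between the LPS responses of irradiated and sham rats was 0.48 ± 0.19 for C3 (unadjusted p = 0.0185, edgeR adjusted p = 0.266), so a different response was not called.

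Itgam, the alpha chain of complement receptor 3, had 523, 756, 743 and 669 CPM in irradiated LPS libraries, against 366, 460, 291 and 352 CPM in sham LPS libraries. With PBS it had 550, 611, 800 and 619 CPM in irradiated rats, against 309, 665, 473 and 431 CPM in sham rats. With LPS every irradiated library was above every sham library, and with PBS sham library 2 lay inside the irradiated range. Itgam was 1.83-fold higher after irradiation with LPS (0.87 ± 0.20, edgeR adjusted p = 0.0035). With PBS the difference was 0.46 ± 0.20 (edgeR adjusted p = 0.119), and it passed without sham PBS library 2 (0.67, adjusted p = 0.0147) and with library totals alone (0.61, adjusted p = 0.033).

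LPS left no called change in Itgam in irradiated (0.06 ± 0.20, edgeR adjusted p = 0.854) or sham rats (-0.35 ± 0.20, adjusted p = 0.199), though in sham rats it fell when PBS library 1 was left out (-0.51, adjusted p = 0.0427). Since CD11b protein set the gate, Itgam levels describe the sorted cells only. Monocyte marker sums, from cells that also carry Itgam, were higher in irradiated than in sham libraries, and their part was not tested.

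C3ar1, the receptor gene for C3a, was lower after irradiation and lower under LPS. It had 237, 351, 289 and 300 CPM in irradiated LPS, 445, 507, 453 and 443 in irradiated PBS, 417, 499, 357 and 456 in sham LPS and 561, 621, 625 and 573 CPM in sham PBS libraries. Irradiated LPS libraries were the lowest and sham PBS libraries the highest, and none of the 4 comparisons had overlapping groups. LPS lowered C3ar1 1.57-fold in irradiated (-0.65 ± 0.11, edgeR adjusted p = 0.000163) and 1.38-fold in sham rats (-0.46 ± 0.11, edgeR adjusted p = 0.00363). Irradiation lowered it 1.47-fold with LPS (-0.55 ± 0.11, edgeR adjusted p = 0.000834) and 1.29-fold with PBS (-0.36 ± 0.11, edgeR adjusted p = 0.0222).

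With library totals alone the fall of C3ar1 after irradiation with PBS was no longer called (-0.20, edgeR adjusted p = 0.193). It was also lost without irradiated PBS library 1, 3 or 4 or sham PBS library 2 or 3, with adjusted p from 0.0514 to 0.0786. The difference between the LPS responses was not called (edgeR adjusted p = 0.701). Summed microglia markers were also lower after irradiation and under LPS, and their part in the C3ar1 values was not tested.

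Cd59, the inhibitor of membrane attack complex assembly, showed the largest change of the 8 genes. It had 103, 97.5, 64.3 and 79.2 CPM in irradiated LPS libraries, against 7.51, 17.5, 16.4 and 16.8 CPM in sham LPS libraries. With PBS it had 71.2, 57.8, 68.6 and 57.2 CPM in irradiated rats, against 15.6, 7.62, 9.33 and 12.2 CPM in sham rats. All 8 irradiated libraries were above all 8 sham libraries. Irradiation raised Cd59 5.9-fold with LPS (log2 2.56 ± 0.25, edgeR adjusted p = 8.46e-07) and 5.71-fold with PBS (2.51 ± 0.25, edgeR adjusted p = 1.79e-06). Over 28 alternative fits the log2 difference lay between 2.35 and 2.68 with LPS and between 2.36 and 2.71 with PBS, called in each.

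LPS left no called change in Cd59 in irradiated (0.43 ± 0.23, edgeR adjusted p = 0.178) or sham rats (0.38 ± 0.25, adjusted p = 0.267). In irradiated rats it passed with limma voom (adjusted p = 0.0311) and when only the groups compared were fitted (edgeR adjusted p = 0.044), and in sham rats without LPS library 1 (0.60, adjusted p = 0.0332). Border-associated macrophage, monocyte, and T and NK cell marker sums were also higher in irradiated libraries, and their part in the Cd59 change was not tested.

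No complement gene differed in its response to LPS between irradiated and sham rats in the interaction test of edgeR, where 0.674% of all genes had a higher and 0.707% a lower difference. C3 alone had an unadjusted p under 0.05, which makes 1 of the 8 genes. The share of all genes under that unadjusted threshold was not counted, so this was not read further. DESeq2 called 0 of the 8, where 176 of all 12308 genes were higher and 241 lower. With limma voom 0 of the 8 were called, where 87 of all genes were higher and 84 lower. With 4 libraries per group, a p that misses the threshold does not show equal responses.

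The rest of the pathway was read from 53 other complement genes, of which 47 had a row and 31 passed the count filter. After irradiation 11 of the 31 rose and 3 fell with LPS, where 15.6% of all genes rose and 13.3% fell, and 12 rose and 5 fell with PBS, where 11.8% of all genes rose and 10.6% fell. LPS raised 6 and lowered 2 in irradiated rats, beside 17.7% and 15.2% of all genes, and raised 2 and lowered 2 in sham rats, beside 15.8% and 15.4% of all genes. For LPS in irradiated rats the counts were 5 and 5 with library totals alone, where 1691 of all 12308 genes rose and 2622 fell. Without both irradiated libraries numbered 1 they were 4 and 3 of 34 tested, beside 1906 and 1574 of all 12343 genes. The median log2 change of the 31 was 0.70 for irradiation with LPS, 0.31 for irradiation with PBS, 0.16 for LPS in irradiated and 0.12 for LPS in sham rats. For irradiation with PBS the counts were 13 and 1 with library totals alone, where 2254 of all 12308 genes rose and 685 fell. Without both irradiated libraries numbered 1 they were 12 and 3 of 34 tested, beside 1277 and 957 of all 12343 genes. In the interaction test 0 of 31 were called by edgeR, beside 0.674% of all genes higher and 0.707% lower. At an unadjusted p under 0.05 there were 2, and the share of all genes under that threshold was not counted. Calls were 0 in limma voom and 0 in DESeq2, which gave no adjusted p for 7.

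Of 9 listed lectin pathway genes 5 passed the count filter, and 4 of these, all of them pattern recognition genes, rose after irradiation with LPS (beside 15.6% of all genes) and with PBS (beside 11.8%). The ficolin genes Fcna and Fcnb and the collectin genes Colec11 and Colec12 were these 4, and Masp2, a protease gene of the pathway, was not called. Colec11 averaged 263 ± 14.4 CPM in irradiated LPS and 253 ± 9.99 in irradiated PBS libraries, against 148 ± 15.7 in sham LPS and 131 ± 7.73 CPM in sham PBS libraries. It was 1.78-fold higher with LPS (edgeR adjusted p = 4.93e-07) and 1.93-fold higher with PBS (edgeR adjusted p = 1.87e-07). Fcnb, a ficolin gene of myeloid cells in rodents, rose 5.45-fold with LPS and 4.62-fold with PBS after irradiation, and under LPS it rose in irradiated rats (1.49 ± 0.44, edgeR adjusted p = 0.0189). That last call was lost without irradiated LPS library 1 (adjusted p = 0.0679), irradiated PBS library 2 (adjusted p = 0.0534) or both irradiated libraries numbered 1 (adjusted p = 0.0982). Colec12 fell under LPS in irradiated rats (-0.92 ± 0.26, edgeR adjusted p = 0.011).

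Of the alternative pathway, Cfd, which encodes the protease factor D, averaged 69.4 ± 17 CPM in irradiated LPS and 109 ± 29.3 in irradiated PBS libraries, against 24 ± 12.4 in sham LPS and 24.4 ± 7.47 CPM in sham PBS libraries. It rose 2.89-fold with LPS (edgeR adjusted p = 0.00456) and 4.45-fold with PBS (edgeR adjusted p = 0.000549). Cfb, the gene of factor B, averaged 573 ± 122 CPM in irradiated and 620 ± 174 CPM in sham rats given PBS, with no call (edgeR adjusted p = 0.707). Cfp, the properdin gene, was not called in any of the 4 comparisons, with adjusted p from 0.0657 for LPS in irradiated rats to 0.937 for LPS in sham rats. Of the classical pathway only C4a was called, and C1r was not called in any comparison. Border-associated macrophage and monocyte marker sums were also higher in irradiated libraries. Their part in the rises of lectin, alternative and classical pathway genes after irradiation was not tested.

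Among soluble regulators, Serping1, the C1 inhibitor gene, averaged 10.5 ± 1.53 CPM in irradiated LPS and 3.06 ± 2.2 CPM in irradiated PBS libraries, against 3.62 ± 1.38 CPM in sham LPS libraries. It rose under LPS in irradiated rats (1.77 ± 0.46, edgeR adjusted p = 0.00573) and after irradiation with LPS (1.53 ± 0.45, adjusted p = 0.0159). Cd55, the gene of the membrane regulator decay accelerating factor, was called in the same comparisons and after irradiation with PBS. Its group means were at most 5.45 CPM. Its call with PBS was lost in several alternatives. Vtn, the vitronectin gene, rose under LPS in sham rats and after irradiation with PBS, at group means of at most 2.19 CPM, and both calls were lost with limma voom (adjusted p = 0.0848 and 0.0936). Of the terminal pathway C6 rose after irradiation, at means under 2 CPM, and C8g fell under LPS in sham rats. The C8g call (edgeR adjusted p = 0.0492) and the C6 call with PBS (edgeR adjusted p = 0.0463) were each lost in most of the alternatives.

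Receptors moved in both directions. Itgax, the alpha chain of complement receptor 4 and a neighbour of Itgam on the chromosome, averaged 318 ± 49.4 CPM in irradiated LPS and 111 ± 27.8 in irradiated PBS libraries, against 26.9 ± 7.95 in sham LPS and 8.5 ± 1.9 CPM in sham PBS libraries. It rose 11.8-fold after irradiation with LPS and 13.1-fold with PBS, and LPS raised it 2.87-fold in irradiated and 3.17-fold in sham rats (edgeR adjusted p from 2.03e-08 to 5.53e-05). Itgb2, the beta chain shared by both receptors, averaged 954 ± 44 CPM in irradiated and 1170 ± 29.9 CPM in sham rats given PBS. It fell there (-0.29 ± 0.07, edgeR adjusted p = 0.00387) and rose under LPS in irradiated rats (0.25 ± 0.07, adjusted p = 0.00706). With library totals alone the irradiation call of Itgb2 was lost (adjusted p = 0.122) and so was its LPS call (adjusted p = 0.0805), which was also lost with upper quartile factors (adjusted p = 0.0579).

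C5ar2, the other receptor gene for C5a, fell in all 4 comparisons. It averaged 287 ± 23.7 CPM in irradiated LPS, 469 ± 36.8 in irradiated PBS, 403 ± 25.6 in sham LPS and 584 ± 18.8 CPM in sham PBS libraries, the same order of groups as for C3ar1. The fall was -0.71 ± 0.08 under LPS in irradiated rats and -0.53 ± 0.08 in sham rats, -0.49 ± 0.08 after irradiation with LPS and -0.32 ± 0.08 with PBS (edgeR adjusted p from 1.45e-06 to 0.00605). Only the last was lost in an alternative, with library totals alone (adjusted p = 0.15). Lrp1, a scavenger receptor gene, fell after irradiation with LPS (-0.78 ± 0.14, edgeR adjusted p = 0.000467) and with PBS (-0.68 ± 0.14, adjusted p = 0.00215). Cd93, a C1q receptor-like gene, rose after irradiation in both arms from means under 1 CPM in sham rats. Small changes in Calr and C1qbp were called after irradiation and lost under several alternatives.

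**Figure D5:**
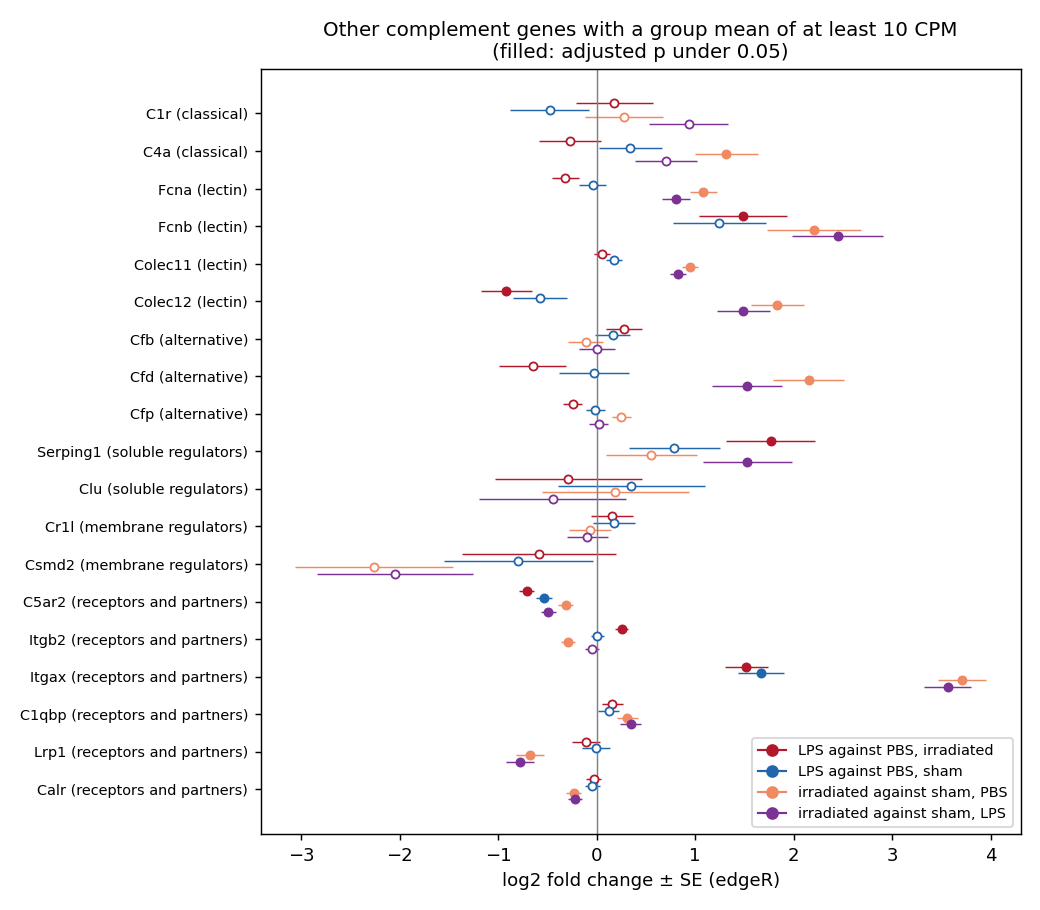
Log2 fold changes ± SE (edgeR) of 19 other complement genes with a group mean of at least 10 CPM, by role; filled symbols have an adjusted p under 0.05. Itgax, Fcnb, Cfd, Colec12, Fcna and Colec11 lie to the right of 0 in both comparisons of irradiated with sham rats, and C5ar2 lies to the left in all 4 comparisons.

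Genes with the profile nearest to each complement gene were found over all 16 libraries by the root mean square difference of centred log2 CPM among 7967 candidates. The nearest to C1qa was RT1-DMb, a class II antigen loading gene (0.0708). Cnbp was nearest to C1qb (0.0884), Uqcrfs1 to C1qc (0.104), Arpc4 to C3 (0.179) and Limk1 to Itgam (0.248). C4a was nearest to C4b (0.299), and the part of divided reads in this was not tested. Eogt (0.0951) and Dapp1 (0.108) were nearest to C3ar1, and Dapp1 averaged 188 ± 26.6 CPM in irradiated LPS, 292 ± 18 in irradiated PBS, 276 ± 9.75 in sham LPS and 366 ± 18.8 CPM in sham PBS libraries. Lgals3bp (0.346) and Napsa (0.358) were nearest to Cd59; Lgals3bp averaged 1180 ± 180 CPM in irradiated LPS and 968 ± 61.8 in irradiated PBS libraries, against 206 ± 24.6 in sham LPS and 188 ± 39.2 CPM in sham PBS libraries. Distances are larger for genes that vary more between libraries, so they rank candidates for a single gene only.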

How the data were processed

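RNA of sorted rat microglia was measured in 16 libraries, 4 per group. The values deposited by the authors are read counts per gene, not normalized. HTSeq 2.0.2, fastp 0.23.2, FastQC 0.11.9 and the build mRatBN7.2 are named, per the submitters' processing notes; the aligner, the annotation and whether counting used strand were not given in the sources used here. Reads of close copies (C4a, C4b) may therefore be divided. The matrix of counts summed per symbol was used, and 0 of 349472 cells differed from the single-library files, in which IDs without a symbol, left out here, took 1.85% to 2.28% of counts. All 24 replicate pairs differed beyond sampling noise.

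Counts were fitted in R 4.3.3 with edgeR 4.0.16 (TMM, filterByExpr, robust quasi-likelihood, 1 coefficient per group; common biological coefficient of variation 0.28), and the scripts were tested on simulated data. Called means an adjusted p under 0.05 over 12308 genes. DESeq2 1.42.0, limma 3.58.1 (voom with sample weights), other scaling, filters and groupings, and leaving out each library were alternatives. Ratios were tested by exact permutation within strata (SciPy 1.17.1). Promoter windows come from RefSeq (GRCr8). No lengths on the files' build were at hand, so levels are compared within a gene.

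The 9 genes were always reported; of the other complement list, called genes were counted and up to 4 per role with the smallest p were named; for each gene the 2 nearest profiles (mean log2 CPM of at least 3) could be named. A gene of that list is counted but not reported here by name. Genes of that list without a call were named as examples after their values were seen. Genes, lists and markers were chosen with earlier results of these data known.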

Additional observations from a re-analysis of the deposited data

Results flagged for a closer look

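In 3 of 48 sets of 4 libraries, each with the values of a gene or of a ratio in a group, 1 library stood apart from the other 3 by Dixon's criterion at the 95% level, which chance alone reaches in about 1 in 20 sets. For C3ar1 the highest irradiated PBS library was number 2 at 507 CPM, against 443 to 453 CPM in the other 3. For C4b the highest sham LPS library was number 2 at 7.75 CPM, against 2.98 to 3.69 CPM in the other 3, and C4a was highest there too (393 CPM, against 196 to 220). For Cd59 the lowest sham LPS library was number 1 at 7.51 CPM, against 16.4 to 17.5 CPM in the other 3. Without that library the LPS difference of Cd59 in sham rats was log2 0.60 (edgeR adjusted p = 0.0332), against 0.38 (adjusted p = 0.267) with all libraries. The library was picked as the lowest of its group, so leaving it out raises the group mean, and no call was drawn from it.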

How the results depend on the processing

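Over all alternatives 1064 values had the same direction and call as reported, 15 gained a call, 21 lost one and 17 changed sign, none of the last with a call in either form. The number of complement genes called stayed within 1.5 times that reported in each comparison. Sign changes in Itgam under LPS in irradiated rats were -0.0363 with upper quartile factors and -0.0566 with library totals alone, and without single libraries the value ranged from -0.00764 to 0.183. After irradiation with PBS, C1qa was 0.0126 and C1qb 0.0616 with library totals alone, and C3 ranged from -0.0236 (without irradiated PBS library 3) to 0.130 without single libraries. Under LPS in sham rats C4b ranged from -0.18 (without LPS library 2) to 0.396 and C3 from -0.128 to 0.0425 (without LPS library 4). In the interaction Cd59 was -0.0310 with library totals alone and ranged from -0.165 to 0.195 without single libraries, and C1qa ranged from -0.135 to 0.0184. The cause was not tested.

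Library totals in place of TMM factors moved the median log2 change of all genes to 0.156 for irradiation with PBS and to -0.138 for LPS in irradiated rats. They also moved the share of calls that were higher to 76.7%, against 52.8% with TMM factors, and to 39.2%, against 53.9%. Deviations of libraries with the same number correlated between -0.0505 and 0.441, under 0.1 for at least 1 number in every comparison, and the labels give no shared source, so numbers were not taken as pairs. Even so, in 29 of 48 matches of a library to the 4 of another group its own number correlated best. By chance 1 in 4 such matches would do so. This is a hint from the data of structure shared by number. A fit with the replicate block added calls for C1qa under LPS in irradiated rats (0.24, edgeR adjusted p = 0.0271), Itgam after irradiation with PBS (0.50, adjusted p = 0.0339) and C1qc after irradiation with LPS (0.20, adjusted p = 0.0218), and removed none of the 8 genes' calls. All 136 ratio values with libraries left out kept their direction and side of the threshold. C4b, with 51 to 621 counts per library, and other genes at a few CPM have wide errors at this depth.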
